A study of Mus musculus with 3 samples.

Results

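Vamp2, Sv2a and Kif5a are presynaptic genes that the study named for introns whose retention depends on the polypyrimidine tract binding proteins. They were found in the deposited gene table by symbol. Each matched 1 row, giving 3 members among 26826 genes. Mouse CAD cells, a catecholaminergic neuroblastoma line, had been transfected with siRNAs against Ptbp1 and Ptbp2 together, with siRNAs against Ptbp1 alone, or with control siRNAs. Poly(A)+ RNA was sequenced 72 h later, as 1 library per group. No genotype or further treatment was given, and all 3 groups had the same line and transfection reagent. A single library per group leaves every difference without a replicate check, and p-values are not given. Intervals are 95% intervals of read numbers. They cover counting error only and, because amplified reads are not independent molecules, may be too narrow even for that.

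Ptbp1 encodes a splicing repressor that binds pyrimidine-rich RNA and is found in most cells other than neurons. Ptbp2 is its paralogue of developing neurons, and Ptbp1 holds it down in other cells. A transcript that keeps an intron can be held in the nucleus and degraded there, so retention can lower the steady-state level of an mRNA. Vamp2 encodes synaptobrevin 2, the vesicle SNARE that pairs with syntaxin and SNAP-25 to fuse synaptic vesicles. Sv2a encodes a synaptic vesicle glycoprotein that is the binding site of the antiepileptic drug levetiracetam. Kif5a encodes a neuronal heavy chain of kinesin-1, the motor that carries cargo along axons.

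The ends of the last introns are shown because regulated retention in these genes was placed in introns at the 3′ end of the transcript. Which reads crossed an intron was not analysed here. The GENCODE annotation of the mm9 assembly gives Vamp2 5 transcripts, of which 2 are coding and 2 are of the retained intron type. Its coding transcripts differ at the end. In the one with the longer coding sequence the last exon runs through intron 4 of the other, so intron 3 is its last. Intron 4 has 622 bases (chr11:68903530-68904151, plus strand). It lies within the coding region of the transcript that removes it, and 1 annotated transcript spans it as exon. Sv2a has 1 coding transcript, with a last intron, number 12, of 384 bases within its coding region. Kif5a has 2 coding transcripts. In the longer one the last intron, number 28, has 1323 bases and lies in the 3′ untranslated region, and the other transcript ends inside it. The median last intron of 19504 coding genes had 1184 bases. Below are the whole of Vamp2 intron 3 (chr11:68903392-68903477, plus strand), the final 30 bases of Vamp2 intron 4 (chr11:68904122-68904151, plus strand), and the final 150 bases of Sv2a intron 12 (chr3:95997506-95997655, plus strand) and of Kif5a intron 28 (chr10:126665478-126665627, minus strand). Capitals mark 3 pyrimidine motifs: the short motif TCTT, the longer motif CTCTCT, and its variant with a leading T, written TTCTCT. They may overlap and were searched on the strand of the RNA only.
Vamp2 intron 3: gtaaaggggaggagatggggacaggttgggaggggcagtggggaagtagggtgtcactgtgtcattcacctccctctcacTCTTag
Vamp2 intron 4: cctcgtcctccTCTTgccCTCTCTccacag
Sv2a intron 12: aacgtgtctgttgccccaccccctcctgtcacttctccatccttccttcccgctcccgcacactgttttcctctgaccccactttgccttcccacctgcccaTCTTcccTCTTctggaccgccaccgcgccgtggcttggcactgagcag
Kif5a intron 28: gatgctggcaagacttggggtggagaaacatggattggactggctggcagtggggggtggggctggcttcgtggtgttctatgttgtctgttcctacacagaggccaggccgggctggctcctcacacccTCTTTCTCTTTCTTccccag

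In the final 150 bases, Kif5a intron 28 held TCTT at 3 places and the variant TTCTCT at 1 place, all within 20 bases of the splice site. Vamp2 intron 4, searched over 150 bases although 30 are shown, held TCTT at 3 places, the longer CTCTCT at 1 place, ending 7 bases before the splice site, and its variant TTCTCT at 1 place. Sv2a intron 12 held 2 TCTT, between 48 and 38 bases from the splice site, and neither of the 6-base motifs in that window. Over the whole Sv2a intron TCTT occurred at 4 places and each 6-base motif at 1 place. Over the whole of Kif5a intron 28 TCTT occurred at 8 places and each 6-base motif at 1 place. Vamp2 intron 4 held no further match outside its window. These motifs are common. Of 17484 last introns of at least 150 bases, 75.1% held TCTT in the same window, 15.2% held the longer CTCTCT, 20.0% held the variant TTCTCT, and 18.3% held TCTT at 3 or more places. The introns also differed in pyrimidine content. Pyrimidines made up 73.3% of the Sv2a window, more than in 99.1% of the windows, and 63.3% of the Vamp2 intron 4 window, more than in 92.1%. In the Kif5a window they made up 52.0%, close to the median of 54.0%. A match is a description of these letters and does not show that a protein binds there.

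**Figure D1:**
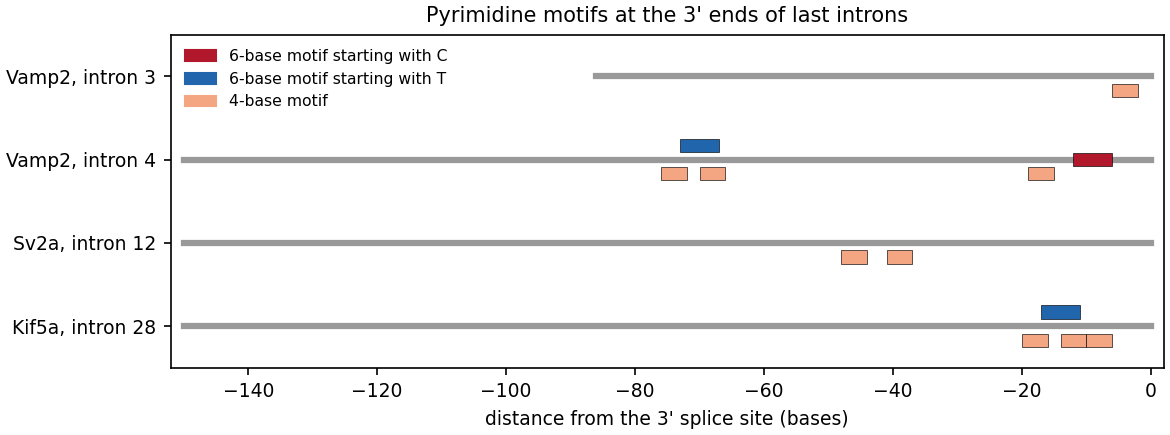
Positions of the pyrimidine motifs (coloured blocks; the 4-base motif is TCTT and the 6-base ones start with C or T) in the last bases of 4 introns, against distance from the 3′ splice site in bases. Grey lines give the stretch shown, 150 bases or the whole 86-base intron 3 of Vamp2. Within that stretch the motifs of Kif5a all lie within 20 bases of the splice site.

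Judged by their lengths, the rows of Vamp2 and Sv2a leave out these introns, while that of Kif5a takes in part of its own. The Vamp2 row has a length of 2164 bases, which is the number of exonic bases, within its span, of the transcript that removes intron 4. The Sv2a row has 3917 bases, equal in the same way to its spliced coding transcript. The Kif5a row has 6719 bases, equal to the joined exons of both of its transcripts. It thus takes in the part of intron 28 in which the shorter transcript ends. That part is bases 126666106 to 126666800 of an intron that spans 126665478 to 126666800. If reads were counted over these lengths, the values are totals over annotated exons that do not separate spliced from intron-retaining RNA. For Kif5a alone, reads from that part of a retained intron 28 would also enter the total. No exon bases of the 3 genes are shared with another annotated gene. None of the 2826, 4299 and 6684 different 36-base words in the annotated coding transcripts of Vamp2, Sv2a and Kif5a occurs in a coding transcript of another gene, and 36 bases is the read length.

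The targeted genes were read first. Ptbp1 had 1516 reads after both siRNAs, 1486 after Ptbp1 siRNA and 7191 in the control library. Scaled to library size, Ptbp1 was 1.21-fold higher (1.13 to 1.30) after both siRNAs than after Ptbp1 siRNA. Ptbp2 had 633 reads after both siRNAs, 3044 after Ptbp1 siRNA and 784 in the control library. After both siRNAs Ptbp2 RNA was thus near its control level. The libraries held 14242495 reads in gene clusters after both siRNAs, 16899549 after Ptbp1 siRNA and 16011466 in the control. A level of 1 CPM, the reads of a gene scaled to a common library size, stood for 14.3 reads after both siRNAs, 16.9 after Ptbp1 siRNA and 15.3 in the control library. Of 12 catecholaminergic markers, 11 reached 1 CPM in a library, but so did 13435 of all 26826 genes. This limit alone is thus a weak check of the cell label. Th, the rate-limiting enzyme of catecholamine synthesis, had 1133 reads after both siRNAs, 1581 after Ptbp1 siRNA and 1426 in the control library.

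Vamp2 was the most abundant of the members and had the largest difference after both siRNAs. It lies on chromosome 11 (68902031 to 68905884). Vamp2 had 3510 reads after both siRNAs, 2723 after Ptbp1 siRNA and 1296 in the control library. Its levels were 246 CPM (238 to 255) after both siRNAs, 161 CPM (155 to 167) after Ptbp1 siRNA and 84.6 CPM (80.1 to 89.3) in the control library. No 2 of these intervals overlapped. Per length the levels were 75.2 RPKM, reads per kilobase scaled to the library total, after both siRNAs, 49.1 RPKM after Ptbp1 siRNA and 24.8 RPKM in the control library. They were above the RPKM of 95.8% of 13435 genes after both siRNAs, 92.7% after Ptbp1 siRNA and 83.0% in the control library.

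Kif5a had the same order of libraries as Vamp2, at a lower level. It lies on chromosome 10 (126662756 to 126700137). Kif5a had 2055 reads after both siRNAs, 1802 after Ptbp1 siRNA and 795 in the control library. Its levels were 144 CPM (138 to 151) after both siRNAs, 106 CPM (101 to 111) after Ptbp1 siRNA and 51.9 CPM (48.4 to 55.6) in the control library, and no 2 of these intervals overlapped. Per length it had 14.2 RPKM after both siRNAs, 10.5 RPKM after Ptbp1 siRNA and 4.90 RPKM in the control library. The share of genes with a lower RPKM was 70.3% after both siRNAs, 62.6% after Ptbp1 siRNA and 42.1% in the control library.

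Sv2a had another order, with its highest level after Ptbp1 siRNA alone. It lies on chromosome 3 (95985151 to 95999104). Sv2a had 617 reads after both siRNAs, 861 after Ptbp1 siRNA and 430 in the control library. Its levels were 43.3 CPM (39.9 to 46.8) after both siRNAs, 50.8 CPM (47.5 to 54.3) after Ptbp1 siRNA and 28.1 CPM (25.5 to 30.9) in the control library. The intervals of the knockdown libraries lay next to each other without overlapping, and both lay above that of the control. Per length it had 7.30 RPKM after both siRNAs, 8.57 RPKM after Ptbp1 siRNA and 4.54 RPKM in the control library. In the control library the counting intervals of Kif5a (4.56 to 5.25 RPKM) and Sv2a (4.12 to 4.99 RPKM) overlapped. In both knockdown libraries the order per length was Vamp2, Kif5a, Sv2a, with no overlap.

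**Figure D2:**
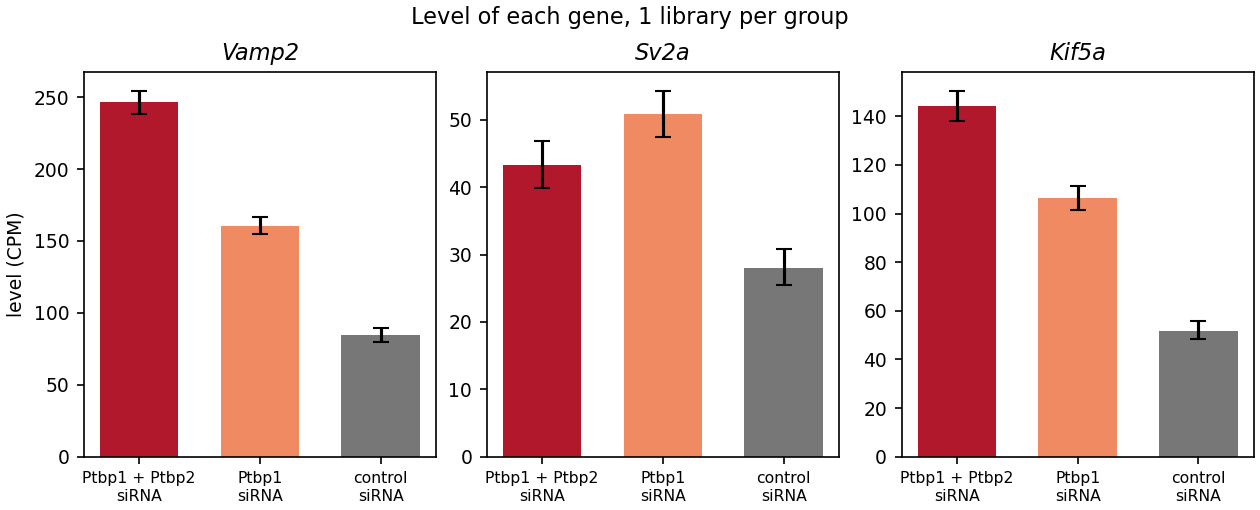
Level of Vamp2, Sv2a and Kif5a in CPM (vertical axes, 1 bar per library) after Ptbp1 and Ptbp2 siRNAs, after Ptbp1 siRNA and with control siRNA; error bars are 95% counting intervals. Vamp2 and Kif5a were highest after both siRNAs, Sv2a was highest after Ptbp1 siRNA, and all 3 were lowest in the control library.

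After both siRNAs the members were higher than in the control library by 1.53 (Vamp2), 1.46 (Kif5a) and 0.61 (Sv2a) on the log2(CPM + 1) scale, with a median of 1.46. The median over all 13298 genes tested was -0.01. A gene was called by size when this difference was at least 1 in size, the higher library reached 1 CPM and the interval of the read ratio left out 1. On that rule 2 of the 3 members, Vamp2 and Kif5a, were called higher, against 147 of 13298 genes or 1.11% called higher in this comparison. The genes called higher made up 29.3% of all calls, or 40.3% with library totals in place of the trimmed mean scaling. Ranked from the highest difference, Vamp2 stood at 12, Kif5a at 21 and Sv2a at 899 of these genes. As a ratio of CPM, Sv2a was 1.54-fold higher (1.36 to 1.75), with an interval above 1 but a size under the 2-fold limit. In this bulk RNA, a change in some cells and a smaller change in all of them cannot be told apart, and fewer cells of a type and less RNA per cell cannot be told apart either.

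After Ptbp1 siRNA alone the 3 genes lay close together. Their differences from the control library on the same scale were 1.02 for Kif5a, 0.92 for Vamp2 and 0.83 for Sv2a. The median was 0.92, against -0.002 over all 13278 genes tested. Only Kif5a was called higher, just past the limit, where 38 of 13278 genes or 0.286% were. With a pseudocount of 5 CPM its difference was 0.97 and the call ended. The genes called higher made up 39.2% of all calls, or 51.0% with library totals for scaling. The ranks were 34 for Kif5a, 62 for Vamp2 and 97 for Sv2a.

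The members can be compared with each other through ratios of their reads within a library, which do not depend on how libraries are scaled. Between Ptbp1 siRNA and the control, the ratio of Vamp2 to Kif5a reads was 0.927 times its control value (0.832 to 1.03), that of Vamp2 to Sv2a 1.05 times (0.916 to 1.20) and that of Kif5a to Sv2a 1.13 times (0.979 to 1.31). All 3 intervals held 1, so at this depth the 3 genes' folds could not be told apart after Ptbp1 siRNA. After both siRNAs the ratio of Vamp2 to Sv2a was 1.89 times its control value (1.64 to 2.17) and that of Kif5a to Sv2a 1.80 times (1.55 to 2.09). The ratio of Vamp2 to Kif5a was 1.05 times its control value (0.943 to 1.16). Directly between the knockdown libraries, with both siRNAs over Ptbp1 siRNA, the ratio of Vamp2 to Sv2a was 1.80 times as high (1.60 to 2.02) and that of Kif5a to Sv2a 1.59 times (1.41 to 1.80). Relative to Sv2a, the other two were therefore higher, beyond counting error, in the library with both siRNAs than in that with Ptbp1 siRNA.

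Set directly against Ptbp1 siRNA, the library with both siRNAs had 1.53-fold more Vamp2 (1.46 to 1.61), 1.36-fold more Kif5a (1.27 to 1.45) and 0.852 times the Sv2a (0.767 to 0.946). None of the 3 was called by size, and 14 of 13332 genes or 0.105% were called higher. On the log2(CPM + 1) scale the differences were 0.61 for Vamp2, 0.44 for Kif5a and -0.23 for Sv2a, which was the 1 member lower after both siRNAs. Ranked from the highest, Vamp2 stood at 211, Kif5a at 611 and Sv2a at 10645 of the 13332 genes. For Vamp2 the step of Ptbp1 siRNA over control made up 60.0% of its total log2 difference, and for Kif5a 70.1%. The 3 comparisons share libraries, so these steps are not independent of the differences above. The knockdown libraries also differed in Ptbp1 RNA, which was 1.21-fold higher after both siRNAs, and not in Ptbp2 RNA alone.

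**Figure D3:**
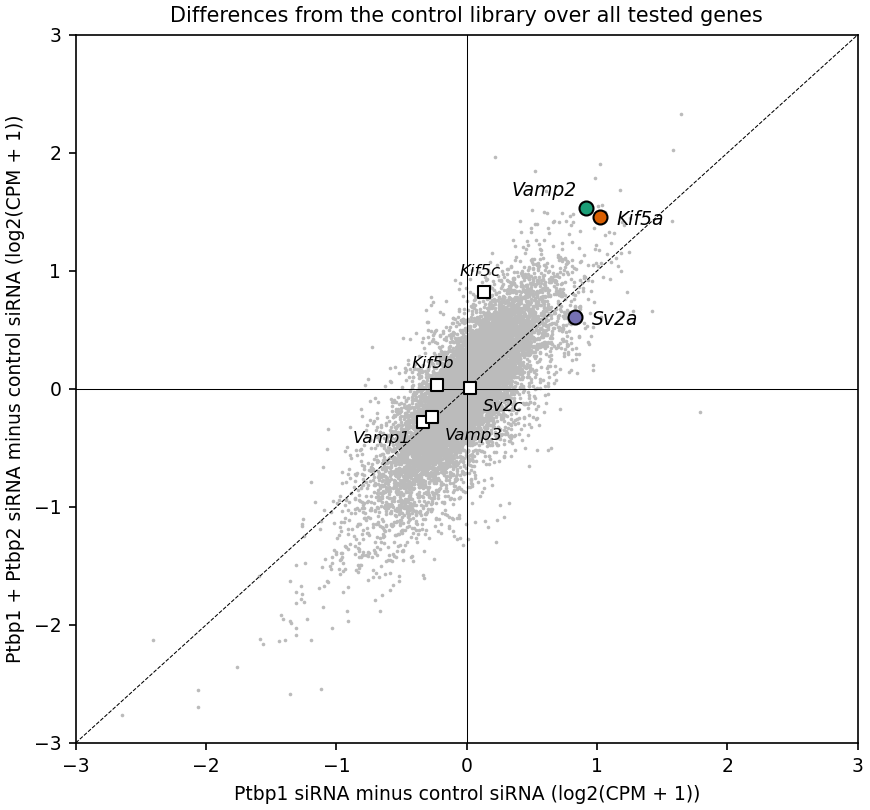
Difference of each of 13141 genes tested in both comparisons on the log2(CPM + 1) scale, Ptbp1 siRNA minus control on the horizontal axis and both siRNAs minus control on the vertical axis; both axes share the control library, and the dashed line marks equal values. Vamp2 (0.92, 1.53) and Kif5a (1.02, 1.46) lie above the line, Sv2a (0.83, 0.61) below it, and the paralogues (white squares) nearer 0 on the horizontal axis.

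Each paralogue with a measurable level lay nearer to the control than the member of its own family. Vamp3, the widely expressed cellubrevin, had 1287 reads after both siRNAs, 1503 after Ptbp1 siRNA and 1637 in the control library. Vamp1, the other neuronal synaptobrevin, had 193 reads after both siRNAs, 221 after Ptbp1 siRNA and 256 in the control library. Both were lower than in the control, with differences after both siRNAs of -0.24 for Vamp3 and -0.28 for Vamp1 and neither called. The ratio of Vamp2 to Vamp3 reads was 3.44 times its control value after both siRNAs (3.12 to 3.80) and 2.29 times after Ptbp1 siRNA (2.08 to 2.52). Vamp2 made up 71.5% of the summed RPKM of Vamp1, Vamp2 and Vamp3 after both siRNAs, 62.5% after Ptbp1 siRNA and 42.0% in the control library. Vamp3 was thus the most abundant of them per length in the control library, and Vamp2 in both knockdown libraries.

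Sv2c, the paralogue that CAD cells expressed beside Sv2a, had 688 reads after both siRNAs, 830 after Ptbp1 siRNA and 736 in the control library. Its differences from the control were 0.01 after both siRNAs and 0.03 after Ptbp1 siRNA. The ratio of Sv2a to Sv2c reads was 1.53 times its control value after both siRNAs (1.30 to 1.81) and 1.78 times after Ptbp1 siRNA (1.52 to 2.07). Sv2b, the third family member, had 3 reads after both siRNAs, 2 after Ptbp1 siRNA and 2 in the control library and gives no comparison. Sv2a made up 41.3% of the family's summed RPKM after both siRNAs, 44.9% after Ptbp1 siRNA and 31.5% in the control library, so Sv2c had more RPKM than Sv2a in every library.

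Kif5b, the kinesin-1 heavy chain of most cell types, had 2191 reads after both siRNAs, 2162 after Ptbp1 siRNA and 2296 in the control library. Its differences from the control were 0.04 after both siRNAs and -0.23 after Ptbp1 siRNA. Kif5c, the other neuronal heavy chain, had 3050 reads after both siRNAs, 2253 after Ptbp1 siRNA and 1854 in the control library, with differences of 0.82 after both siRNAs and 0.13 after Ptbp1 siRNA. Kif5c was therefore 1.77-fold higher after both siRNAs (1.67 to 1.87) and 1.10-fold higher after Ptbp1 siRNA (1.03 to 1.17). The ratio of Kif5a to Kif5c reads was 1.57 times its control value after both siRNAs (1.42 to 1.74) and 1.87 times after Ptbp1 siRNA (1.68 to 2.07). Directly between the knockdown libraries it was 0.842 times as high after both siRNAs (0.774 to 0.917). Kif5a made up 25.9% of the RPKM of the 3 heavy chains after both siRNAs, 26.3% after Ptbp1 siRNA and 14.1% in the control library.

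**Figure D4:**
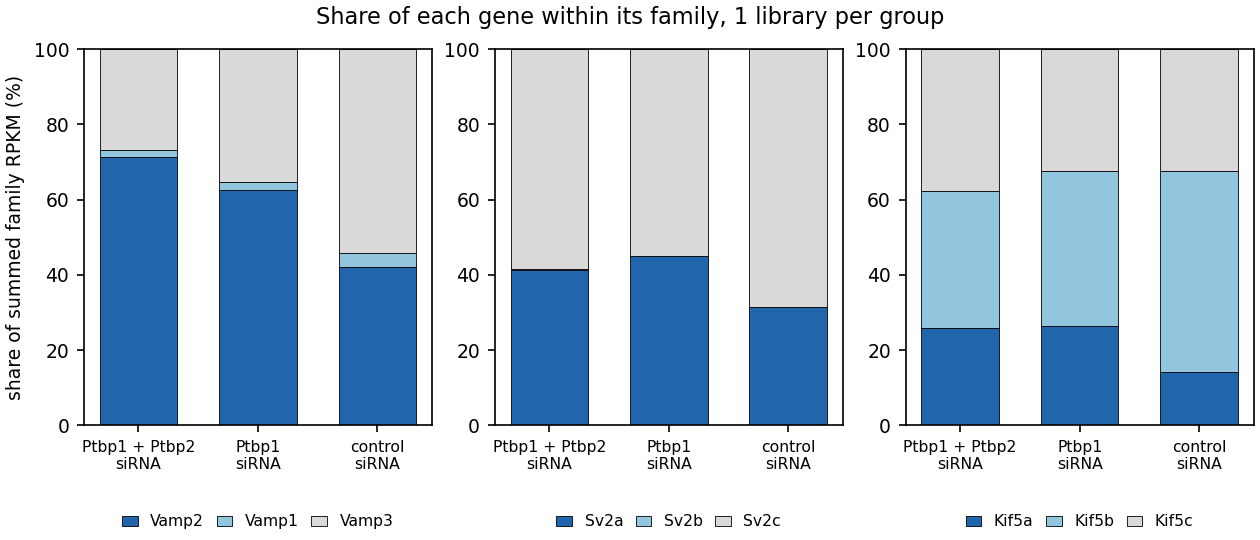
Share of each gene in the summed RPKM of its family (vertical axes, %) in the 3 libraries, 1 bar per library. Vamp2 held 71.5% after both siRNAs, 62.5% after Ptbp1 siRNA and 42.0% in the control library. Sv2a (at most 44.9%) and Kif5a (at most 26.3%) held smaller shares than Vamp2 in every library. Their shares too were lowest in the control library (31.5% and 14.1%).

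Most partners of Vamp2 in membrane fusion were not called by size. In a list of SNARE and release genes without Vamp2, 1 of 31 tested was called higher and 1 lower after both siRNAs, and the median was -0.17. Its SNARE partner Stx1a had 977 reads after both siRNAs, 1141 after Ptbp1 siRNA and 1027 in the control library. The other partner, Snap25, had 4720 reads after both siRNAs, 4976 after Ptbp1 siRNA and 4883 in the control library. They differed from the control by 0.03 and 0.05 after both siRNAs. Napb, a neuronal SNAP protein that helps take SNARE complexes apart, had 1327 reads after both siRNAs, 1380 after Ptbp1 siRNA and 562 in the control library and was 2.54-fold higher after both siRNAs (2.30 to 2.81). It was also called higher after Ptbp1 siRNA (1.13 on the log2 scale), the 1 call in the list in that comparison. Snap23, the SNAP-25 relative of non-neuronal cells, had 152 reads after both siRNAs, 258 after Ptbp1 siRNA and 470 in the control library and was 2.88-fold lower after both siRNAs (2.39 to 3.48), where 2.67% of genes were called lower. Vamp5, another VAMP family gene, had 9 reads after both siRNAs, 22 after Ptbp1 siRNA and 33 in the control library, with a difference of -0.95 and no call.

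Among 30 other vesicle genes tested, matched by alias, 2 were called higher and none lower after both siRNAs, with a median of 0.21. No gene of the list was called after Ptbp1 siRNA, where the median was 0.12. Slc18a3, the vesicular acetylcholine transporter, had 600 reads after both siRNAs, 432 after Ptbp1 siRNA and 233 in the control library and was 2.77-fold higher after both siRNAs (2.38 to 3.23). Syt5, a synaptotagmin, had 56 reads after both siRNAs, 56 after Ptbp1 siRNA and 18 in the control library and was 3.34-fold higher (1.94 to 6.04). Slc18a1, a vesicular monoamine transporter, had 33 reads after both siRNAs, 95 after Ptbp1 siRNA and 78 in the control library with a difference of -0.88. The abundant vesicle protein genes Syp and Syt1 differed from the control by 0.25 and -0.03.

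Kinesin-1 subunit and adaptor genes besides Kif5a were matched by alias. Of these 17, 1 was called higher after both siRNAs and none lower, with a median of 0.04. After Ptbp1 siRNA none was called, with a median of -0.03. Klc1, the light chain that links kinesin-1 to cargo, had 2940 reads after both siRNAs, 2735 after Ptbp1 siRNA and 1483 in the control library and was 2.13-fold higher after both siRNAs (2.00 to 2.27). Klc4, another light chain, had 75 reads after both siRNAs, 101 after Ptbp1 siRNA and 171 in the control library with a difference of -0.96. Each list median was far below the 1.46 of the members. The members were picked by the study for their regulation, so this contrast does not set them apart as a group.

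**Figure D5:**
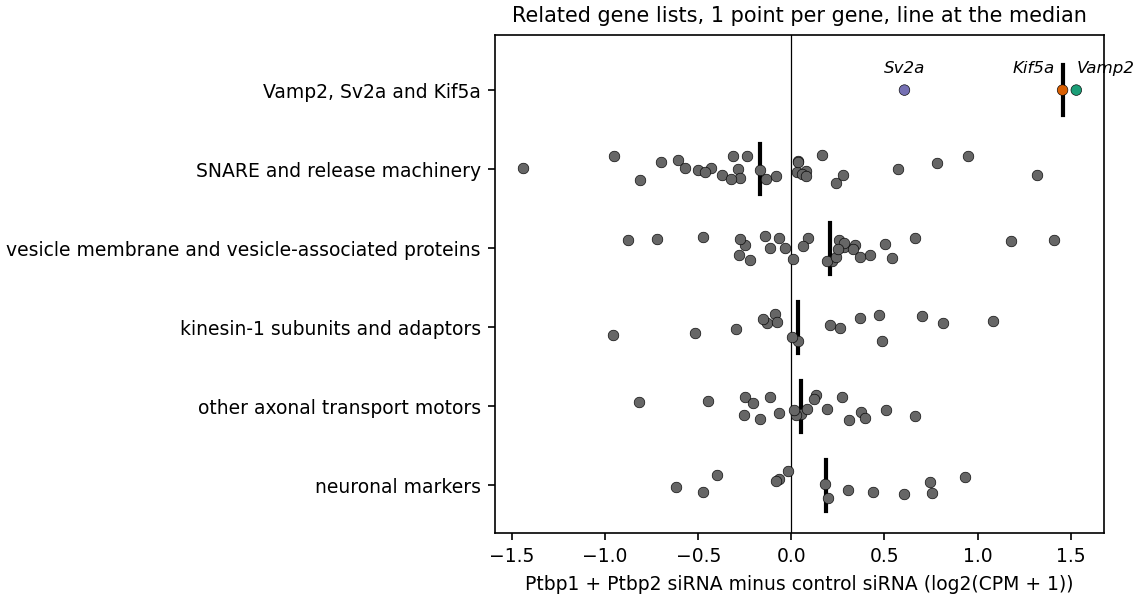
Difference between both siRNAs and control on the log2(CPM + 1) scale (horizontal axis) for Vamp2, Sv2a and Kif5a and for 5 related gene lists; each point is a gene and the black line is the median. Medians of the lists lie between -0.17 and 0.21, against 1.46 for the members.

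The genes whose pair of differences from the control lay nearest to each member were sought among 10762 genes with at least 200 reads in all. Nearness was the straight-line distance over the 2 differences, which share the control library. For Kif5a the nearest were Rrp12, a ribosome assembly gene with 1938 reads after both siRNAs, 1777 after Ptbp1 siRNA and 767 in the control library (distance 0.05), and Slc45a1, a sugar transporter gene with 134 reads after both siRNAs, 113 after Ptbp1 siRNA and 41 in the control library (0.06). For Vamp2 they were Ttc9b with 488 reads after both siRNAs, 360 after Ptbp1 siRNA and 178 in the control library (0.11) and Acpp, an acid phosphatase gene with 110 reads after both siRNAs, 86 after Ptbp1 siRNA and 30 in the control library (0.12). For Sv2a they were Aif1l with 66 reads after both siRNAs, 97 after Ptbp1 siRNA and 42 in the control library (0.02), and Lrrc36 with 124 reads after both siRNAs, 180 after Ptbp1 siRNA and 85 in the control library (0.04). The third was Ecel1, a neuronal metalloprotease-like gene with 207 reads after both siRNAs, 296 after Ptbp1 siRNA and 139 in the control library (0.04). Most of these genes had few reads, and how far counting error sets this order was not tested.

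Marker genes of neurons and of other cells were read beside the members. Of 14 neuronal markers tested, none was called after both siRNAs or after Ptbp1 siRNA, and their median after both was 0.19, with 8 above 0 and 6 below. Nefh was at 0.93, Gap43 at 0.76 and Nefm at 0.75, while Tubb3 was at -0.07, Stmn2 at -0.48 and Mapt at -0.62. The summed level of the list was 3906 CPM after both siRNAs, 3494 CPM after Ptbp1 siRNA and 3479 CPM in the control library. Of 11 catecholaminergic markers tested after both siRNAs, 6 were above 0 and 5 below, with a median of 0.08. Dbh and Phox2a, the 2 called higher, were at 1.22 and 1.05, and Slc18a2 at 0.37, while Th was at -0.23. The sum of the 12 catecholaminergic markers was 3729 CPM after both siRNAs, 3087 CPM after Ptbp1 siRNA and 3621 CPM in the control library. Astrocyte markers had lower sums in the knockdown libraries, with 77.3 CPM after both siRNAs, 143 CPM after Ptbp1 siRNA and 230.0 CPM in the control library. Aldoc alone gave most of each sum, with 632 reads after both siRNAs, 1582 after Ptbp1 siRNA and 2698 in the control library. In that list 3 of 9 markers were tested, Aldoc at -1.97, Fgfr3 at -0.68 and Slc1a2 at -0.49, and Slc1a3 and Gjb6 had 0 reads in every library. The sum of 9 oligodendrocyte and Schwann markers was 375 CPM after both siRNAs, 378 CPM after Ptbp1 siRNA and 401 CPM in the control library. That of 8 fibroblast markers was 10.7 CPM after both siRNAs, 16.1 CPM after Ptbp1 siRNA and 16.6 CPM in the control library. That of 9 blood, microglia and endothelial markers was 12.1 CPM after both siRNAs, 17.1 CPM after Ptbp1 siRNA and 22.7 CPM in the control library. Of these 3 lists, Pmp22 was at -0.09 and Cnp at -0.30. Col1a1 was at -1.04, the 1 call among them, Pdgfrb at -0.79, Thy1 at 0.35, and Pecam1 at -0.90. Cdh5 was below 1 CPM in both of these libraries, with 4 reads after both siRNAs and 6 in the control library, and was not compared. Col1a2, Hba-a1 and Hbb-b1 had 0 reads in every library. The part of these markers in the members' differences was not tested.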

How the data were processed

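Per the labels' protocols, poly(A)+ RNA was broken by heat, primed at random, size-selected at 350 bp and given 15 cycles of PCR before paired 36-base ends were read. The authors' deposited table gives net reads, a score in whole numbers, for 27389 gene clusters. It also gives a length and RPKM values as other columns. The build is mm9, per the file headers. The aligner and counting tool are not given in the sources used here. A deposited read value is below 0 in 38 clusters (lowest -65), for a reason no header states. These clusters and 127 without a length were dropped, and the remaining values were taken as counts, so intervals are approximate. They would be too narrow if the 2 ends of a pair were counted separately, which is not stated.

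Clusters were named by alias and by position in GENCODE on the same assembly, and the row with the highest mean was kept per symbol. Members, paralogues and listed genes were matched by alias alone, so a list may hold a row of another gene with that alias. The Grip1 row lies on chromosome 1 and the Syt4 row on chromosome 17, and their identity was not checked. Scaling used trimmed means of M values (trimming 30% of M and 5% of A; numpy 2.4.6, scipy 1.17.1). The factors were 1.01 for both siRNAs, 1.02 for Ptbp1 siRNA and 0.972 for control. The added 1 in log2(CPM + 1) shrinks differences of low genes. Fold intervals are exact Clopper-Pearson intervals of the conditional binomial share. Level intervals are exact Poisson intervals, and ratios between genes have exact conditional odds ratio intervals. With 1 library each, groups were not tested against each other. The calling rule was checked on simulated data, which does not stand in for replicate libraries.

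The members and gene lists were chosen with earlier results of these data known. Named were the members, their paralogues, up to 3 genes per list with the largest difference after both siRNAs, and 3 nearest genes per member. Stx1a, Snap25, Syp, Syt1, Th, Tubb3, Stmn2 and Mapt were added after their values were seen. Vamp2 intron 4 was added because the rule by coding length gave intron 3. Some genes that met the rules are not reported here. The alternatives were pseudocounts of 0.1 and 5 CPM, median-of-ratios and library total scaling, no filter or one at 5 CPM, a 1.5-fold limit and summed rows per symbol.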

Additional observations from a re-analysis of the deposited data

How the results depend on the processing

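The differences of Vamp2, Sv2a and Kif5a kept their sign and moved by less than their counting interval under the 5 alternatives run on them (both pseudocounts, both scalings, summed rows). After both siRNAs Vamp2 lay between 1.49 and 1.59, Kif5a between 1.39 and 1.52 and Sv2a between 0.55 and 0.67. After Ptbp1 siRNA they lay between 0.89 and 0.98, 0.97 and 1.08, and 0.76 and 0.89 in that order, so under these 5 the call of Kif5a after Ptbp1 siRNA depended on the setting. A 1.5-fold limit would also call Vamp2 (0.92) and Sv2a (0.83) after Ptbp1 siRNA, Sv2a after both siRNAs (0.61) and Vamp2 between the knockdown libraries (0.61). Counts of genes called depended far more on the settings. Against the 147 higher and 355 lower after both siRNAs, a pseudocount of 0.1 CPM gave 350 higher, a pseudocount of 5 CPM 45 and 174, and a 1.5-fold limit 992 and 1311. Against the 38 and 59 after Ptbp1 siRNA, these gave 173 and 133, 4 and 26, and 406 and 448, and a filter at 5 CPM gave 23 higher. Against the 14 and 46 between the knockdown libraries, they gave 86 and 170, 1 and 9, and 246 and 478, and the filter gave 6 higher. The cause was not tested. No paired analysis was possible because each group had 1 library. A count of 0 allows up to 0.210, 0.177 and 0.196 CPM (3 reads) in the order both siRNAs, Ptbp1 siRNA, control, for counting error only.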

Other observations

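In a list of axonal transport motors and related genes other than kinesin-1, none of 21 tested was called after both siRNAs, with a median of 0.05. Kif1c was at -0.82, Kif2a at 0.51 and Kif21b at 0.66 on 26 reads after both siRNAs, 64 after Ptbp1 siRNA and 12 in the control library. After Ptbp1 siRNA Kif21b, at 1.42, was the 1 gene of the list called. Nuclear exosome and pore genes, whose products degrade or hold back RNA in the nucleus, had a median of 0.17 over 21 tested genes after both siRNAs, and none was called. Exosc2 was at 0.97, Dis3, a catalytic subunit, at 0.71 and Exosc9 at 0.60, against a median of -0.01 over all genes tested.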
